A study of Mus musculus with 8 samples.

Results

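The active zone scaffold genes considered here are Bsn, Pclo, Rims1, Rims2, Rims3, Unc13a, Unc13b, Unc13c, Erc1 and Erc2. Every non-control probe of the array whose printed gene name equals one of these symbols was taken, which gave 20 probes for 10 genes among 39429 non-control probes. Expression was measured in striatal RNA of adult female C57Bl/6j mice, in 4 wildtype and 4 Brd2+/- (heterozygous) samples. The mice came from matings of heterozygous parents at backcross generation 7, with an average of 99% C57Bl/6J background, and the mutant allele is a gene-trap insertion in Brd2, a BET-family gene that encodes a reader of acetylated histones. The insertion is in the germline and is not restricted to a cell type. The sample descriptions name the striatum, while the tissue field adds the prefrontal cortex. RNA was hybridised to 4 two-colour Agilent arrays, each holding 2 samples of one genotype. In both genotypes Cy3 labelled replicates 1 and 3, and Cy5 labelled replicates 2 and 4.

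The active zone is the patch of presynaptic membrane where synaptic vesicles dock, are primed and fuse. Bassoon and Piccolo are giant scaffold proteins that span it, RIM proteins tether vesicles and calcium channels there through Rab3 and other partners, Munc13 proteins make docked vesicles ready to fuse by acting on syntaxin, and ELKS proteins bind RIM, Bassoon and Piccolo. In the striatum, release sites belong both to local neurons and to axons that arrive from the cortex, the thalamus and the midbrain. Most mRNA lies in cell bodies, so striatal RNA mainly reports the cells whose bodies are in the dissected piece.

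The sequences of 4 probes show what the array reads in Pclo, Rims1 and Unc13a, which are among the genes whose separate probes gave different values below. Each probe is 60 bases long and is written 5′ to 3′ as the scanner files give it. The first Pclo probe (chr5:14682209-14682268, mm9, plus strand) belongs to both RefSeq transcripts that the array names for Pclo, and the second (chr5:14855569-14855628, plus strand) to only one of them. The Rims1 probe lies at chr1:22278591-22278650 on the minus strand, and the Unc13a probe at chr8:74154416-74154475 on the minus strand.
Pclo A_55_P2058143: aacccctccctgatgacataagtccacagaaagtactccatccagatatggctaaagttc
Pclo A_52_P336904: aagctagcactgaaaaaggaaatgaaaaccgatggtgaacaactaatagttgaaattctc
Rims1 A_55_P1974264: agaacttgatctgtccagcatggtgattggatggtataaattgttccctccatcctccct
Unc13a A_55_P2017964: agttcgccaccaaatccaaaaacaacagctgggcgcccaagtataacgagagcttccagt

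Brd2 itself measured 12.83 ± 0.25 in wildtype samples, against 12.01 ± 0.29 in the heterozygotes (log2 intensity, SD, n = 4 each), a level of 56.4% of wildtype that did not pass the threshold (limma adjusted p = 0.403). The library labelled heterozygous replicate 3 had 75.6% of the wildtype mean, and the others of its genotype had 49.2% to 55.1%. Wildtype samples ran from 79.1% (replicate 3) to 119% (replicate 2). Because heterozygous replicate 3 had the highest Brd2 level of its genotype, differences are also given without it. Its Brd2 value was not an outlier by the rule for single samples given at the end. A second, dim Brd2 probe was at 122% of wildtype. Between 37.7% and 47.6% of spots were well above background in Cy3 samples and between 65.9% and 75.5% in Cy5 samples, with heterozygous replicate 3 lowest. All 14 markers of striatal projection neurons were above background in every wildtype sample, and 5 of 12 markers of cortical excitatory neurons were. The mean level of the cortical markers, relative to the wildtype mean, lay between -0.19 and 0.50 in wildtype and at 1.54, 1.22, 0.79 and 0.50 in heterozygous replicates 1 to 4 (log2). That of the projection neuron markers lay between -0.11 and 0.13 in wildtype and at 0.12, -0.70, -1.09 and -0.15. Choroid plexus markers, between -0.21 and 0.12 in wildtype, were at -0.64, 0.41, 1.74 and 0.51. Markers of thalamus and hypothalamus, between -0.29 and 0.15 in wildtype, were at -0.36, 0.20, 1.86 and 0.81, and oligodendrocyte markers reached 0.64 in heterozygous replicate 3, against -0.13 to 0.13 in wildtype. The part of tissue makeup in the values below was not tested, and in such bulk samples fewer cells of a type and less RNA per cell cannot be told apart.

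Of the 10 genes, 9 had a probe well above background in all 4 wildtype samples, and Rims1 had one in 3 of them. In all, 18 of the 20 probes passed the filter for testing, which asked for such a signal in at least 4 of the 8 samples. None of the 18 passed the threshold for a genotype difference (limma, adjusted p between 0.462 and 0.970), against 0.00394% of all 25351 probes tested, which is 1 probe, of Btbd9. At an unadjusted p under 0.05 there were 3 of 18 member probes, or 16.7%, against 8.78% of all probes. All 3 were higher in heterozygous samples, and over all probes 4.46% were higher and 4.32% lower at that level. Each of the 3 was dim, being above background in fewer than 8 samples. The fitted differences were above 0 for 9 probes and below 0 for 9, and 48.3% of all probes were above 0. They ran from -0.57 to 0.50 with a median of 0.079, against -0.0082 over all probes (log2, heterozygous minus wildtype). The median size of a difference regardless of sign was 0.23 for the member probes and 0.14 for all probes. Without heterozygous replicate 3 the median was 0.20, against 0.0017 over all probes. In that fit 12 member probes were above 0 and 6 below, and the share of all probes above 0 was not counted. An unadjusted p under 0.05 was found for 7 of 18 (38.9%), 5 higher and 2 lower, against 11.8% of all probes. None passed the threshold there either (smallest adjusted p = 0.309), against 0.00395% of all probes. Of the fits with 1 sample left out, this one gave the largest count and the highest median. Without heterozygous replicate 4 the count was 0, against 4.02% of all probes, and without heterozygous replicate 1 the median was -0.051.

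**Figure D1:**
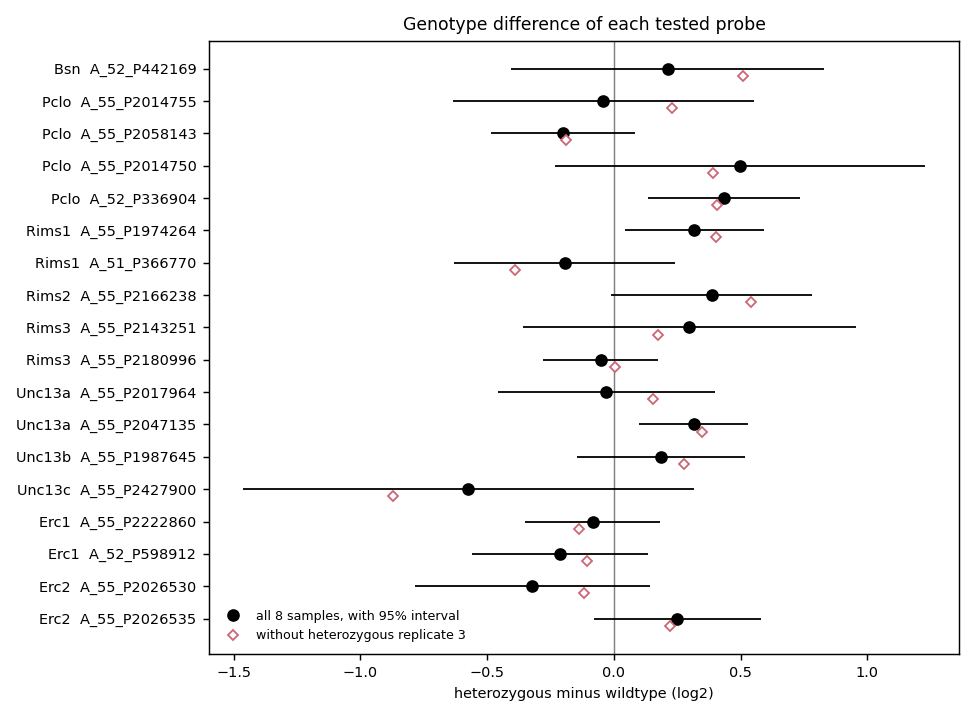
Fitted heterozygous minus wildtype difference (log2, horizontal axis) of each of the 18 tested probes, with the 95% interval of the limma fit (line), and the difference without heterozygous replicate 3 (open diamond). Points lie on both sides of 0, from -0.57 for Unc13c to 0.50 for a Pclo probe.

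Bsn encodes Bassoon, one of the giant scaffold proteins. Its probe (A_52_P442169, chr9:107998602-107998661, minus strand) was well above background in all 8 samples. Wildtype replicates 1 to 4 measured 12.70, 12.65, 13.00 and 12.59, and heterozygous replicates 1 to 4 measured 13.47, 13.17, 12.19 and 12.96 (log2 intensity with the dye effect removed, the scale of all sample values below). Heterozygous replicate 3 was the lowest of all 8, replicates 1 and 2 were above every wildtype sample, and the groups overlapped. The difference was 0.21 (SE 0.267, 95% interval -0.40 to 0.83, adjusted p = 0.822), a heterozygous level of 116% of wildtype. Without heterozygous replicate 3 it was 0.51 (unadjusted p = 0.00521, adjusted p = 0.309).

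Pclo encodes Piccolo, the other giant scaffold, whose transcripts differ at their 3′ ends, and its 4 probes did not share a direction. The brightest (A_55_P2014755, chr5:14795934-14795993, plus strand), assigned to the first of the 2 RefSeq transcripts, measured 12.60, 12.33 and 12.34 in wildtype replicates 1, 3 and 4, the spot of replicate 2 being left out as an outlier. It measured 12.86, 12.43, 11.81 and 12.41 in heterozygous replicates 1 to 4. The heterozygous values surrounded the wildtype ones, replicate 3 being lowest, and the difference was -0.042 (SE 0.250, adjusted p = 0.969), or 0.23 without replicate 3. The probe common to both transcripts (A_55_P2058143) measured 9.20, 9.32, 9.37 and 9.21 in wildtype against 9.12, 9.30, 9.00 and 8.86 in heterozygous samples. Of the heterozygous values, 3 were below all wildtype values and that of replicate 2 was among them, with a difference of -0.20 (SE 0.123, adjusted p = 0.656), or -0.19 without replicate 3.

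The 2 probes assigned to the other Pclo transcript alone had positive differences. A_55_P2014750 (chr5:14863399-14863458, plus strand) measured 9.22, 9.09, 7.79 and 8.39 in wildtype against 9.08, 8.88, 9.39 and 9.13 in heterozygous samples. Its wildtype values were widely spread (SD 0.66, n = 4), the one of replicate 3 was not well above background, and the difference was 0.50 (SE 0.316, adjusted p = 0.662), or 0.39 without heterozygous replicate 3. A_52_P336904 measured 7.63, 7.99, 8.11 and 7.86 in wildtype against 8.31, 8.22, 8.41 and 8.38 in heterozygous samples. Every heterozygous value was above every wildtype value, with a difference of 0.43 (SE 0.129, unadjusted p = 0.0102, adjusted p = 0.462), and 0.41 without heterozygous replicate 3. This probe was well above background in the Cy5 samples alone, 2 of each genotype. Its mean spot intensities there, before normalization, were 210 and 211 in wildtype and, in heterozygous samples, 460 and 491, where 153 negative control spots had medians of 63 to 67. In Cy3 they were 272 and 369 in wildtype against 385 and 303 in heterozygous samples, where negative control spots had medians of 244 to 261. The heterozygous Cy5 channels were also brighter for the Erc1 probe A_55_P2222860 (622 and 491 against 355 and 446), whose normalized Cy5 difference was -0.23. The normalized difference of the Pclo probe was 0.37 in Cy5 alone and 0.50 in Cy3 alone.

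**Figure D2:**
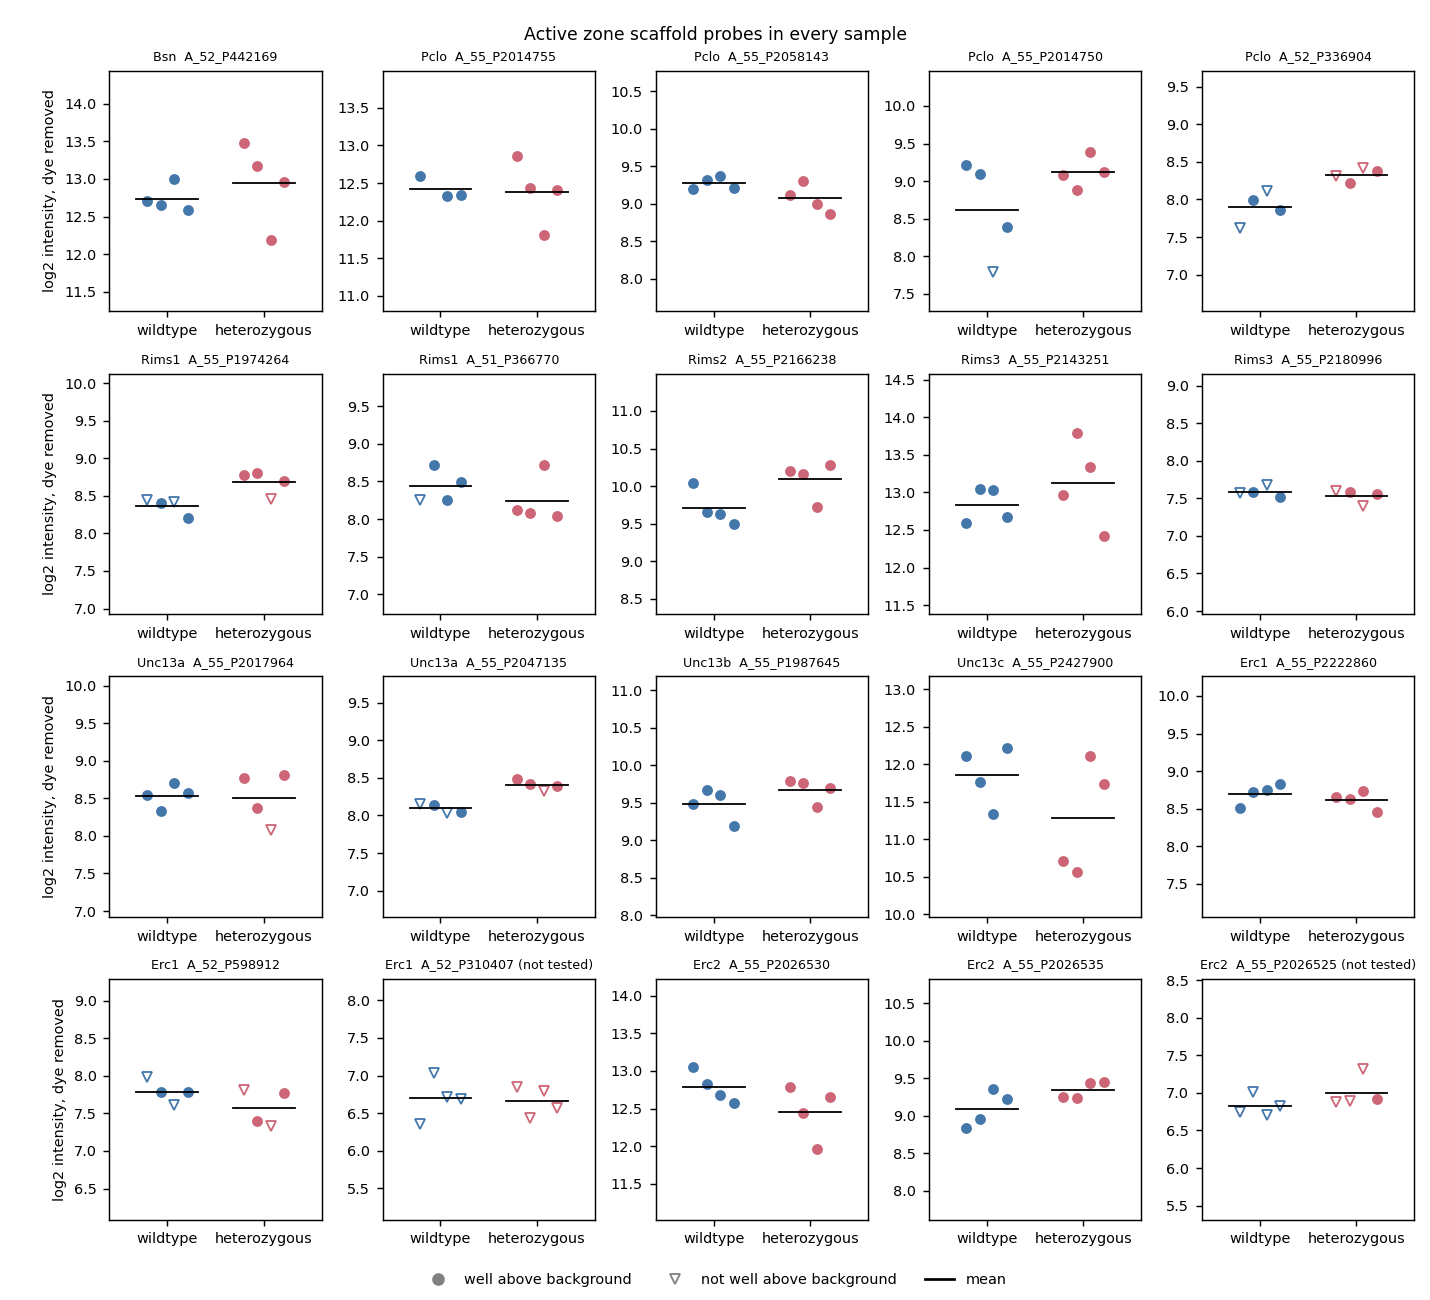
Log2 intensity with the dye effect removed (vertical axis, each panel spanning the same number of log2 units) of all 20 probes in the 4 wildtype (blue) and 4 heterozygous (red) samples, with replicates 1 to 4 from left to right. Open triangles were not well above background and lines are group means. The groups are separate in 3 tested panels, Pclo A_52_P336904, Rims1 A_55_P1974264 and Unc13a A_55_P2047135.

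Among the RIM genes, Rims1 and Rims2 encode the long, multidomain RIM proteins that bind Rab3, Munc13 and calcium channels. The Rims1 probe A_55_P1974264 measured 8.45, 8.41, 8.42 and 8.20 in wildtype against 8.78, 8.80, 8.46 and 8.70 in heterozygous samples. The groups did not overlap, although heterozygous replicate 3 was only just above the highest wildtype value. The difference was 0.32 (SE 0.119, unadjusted p = 0.0288, adjusted p = 0.523), or 125% of wildtype, and 0.40 without heterozygous replicate 3. The second Rims1 probe (A_51_P366770, chr1:22545140-22545199, minus strand), which lies nearer the 5′ end, measured 8.26, 8.72, 8.26 and 8.50 in wildtype against 8.12, 8.09, 8.71 and 8.04 in heterozygous samples. In heterozygous samples 3 values were below all wildtype values and replicate 3 was near the top, so the difference was -0.19 (SE 0.189, adjusted p = 0.767) with it and -0.39 without it (unadjusted p = 0.0228, adjusted p = 0.367). In Cy3 alone the sign of this probe turned, to 0.16.

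The probe of Rims2 (A_55_P2166238, chr15:39513319-39513378, plus strand) was above background throughout. It measured 10.04, 9.66, 9.63 and 9.49 in wildtype against 10.20, 10.16, 9.72 and 10.28 in heterozygous samples. In heterozygous samples 3 values were above all wildtype values, replicate 3 lay below wildtype replicate 1, and the difference was 0.39 (SE 0.171, unadjusted p = 0.0545, adjusted p = 0.578). Of the 10 member probes above background in all 8 samples, 5 with differences above 0 and 5 below, this one had the smallest unadjusted p. Without heterozygous replicate 3 its difference was 0.54 (unadjusted p = 0.00679, adjusted p = 0.315).

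Rims3 encodes a short RIM that lacks the N-terminal Rab3-binding part. Its bright probe (A_55_P2143251, chr4:120569114-120569173, plus strand) measured 12.59, 13.04, 13.03 and 12.67 in wildtype against 12.96, 13.79, 13.34 and 12.43 in heterozygous samples. The heterozygous samples held both the highest and the lowest value, and the difference was 0.30 (SE 0.285, adjusted p = 0.760), or 0.18 without heterozygous replicate 3. The dim probe A_55_P2180996 (chr4:120563927-120563986, plus strand) ranged from 7.52 to 7.67 in wildtype and from 7.40 to 7.60 in heterozygous samples, with a difference of -0.053 (SE 0.0982, 95% interval -0.28 to 0.17).

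Unc13a encodes the main Munc13 priming factor of forebrain excitatory synapses, and its 2 probes also gave different values. A_55_P2017964 measured 8.54, 8.34, 8.70 and 8.57 in wildtype against 8.77, 8.37, 8.08 and 8.81 in heterozygous samples. Heterozygous replicate 3 was the lowest and not well above background, the groups overlapped, and the difference was -0.03 (SE 0.185, 95% interval -0.46 to 0.40), or 0.16 without that replicate. A_55_P2047135 (chr8:74148542-74148601, minus strand), assigned to cDNA clones and not to a RefSeq transcript, measured 8.15, 8.13, 8.04 and 8.05 in wildtype. It measured 8.49, 8.42, 8.33 and 8.39 in heterozygous samples. All heterozygous values were above all wildtype values, and the difference of 0.32 (SE 0.0932) had the smallest unadjusted p of the member probes, 0.00985, with an adjusted p of 0.462. It was 0.35 without heterozygous replicate 3, and 0.31 and 0.32 in Cy3 and Cy5 alone, while 3 of the 4 Cy3 spots were not well above background.

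Unc13b encodes a Munc13 protein found more widely, and its probe (A_55_P1987645, chr4:43277637-43277696, plus strand) was above background in all samples. It measured 9.49, 9.68, 9.60 and 9.19 in wildtype against 9.79, 9.76, 9.45 and 9.70 in heterozygous samples. The 3 heterozygous values other than replicate 3 were above all wildtype values, with a difference of 0.19 (SE 0.143, adjusted p = 0.706), or 0.28 without that replicate. Unc13c encodes the Munc13 protein best known from the cerebellum. Its single probe (A_55_P2427900, chr9:73781310-73781369, minus strand) starts at base 5 of its transcript and was well above background in all 8 samples. It measured 12.11, 11.76, 11.34 and 12.21 in wildtype against 10.71, 10.56, 12.11 and 11.74 in heterozygous samples. The low heterozygous samples, replicates 1 and 2, shared an array, and both samples of the other heterozygous array lay within the wildtype range. The difference of -0.57 (SE 0.384, 95% interval -1.46 to 0.32, adjusted p = 0.676) was the largest in size of the 18, and it was -0.87 without heterozygous replicate 3 (unadjusted p = 0.0385, adjusted p = 0.405). Of the marker lists, that of cortical neurons was highest in the same 2 samples. Whether the array or the tissue makeup had a part in these values was not tested.

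Erc1 and Erc2 encode ELKS and its close relative CAST. The Erc1 probe A_55_P2222860 (chr6:119544902-119544961, minus strand) ranged from 8.51 to 8.83 in wildtype and from 8.46 to 8.74 in heterozygous samples, a difference of -0.08 (SE 0.115, 95% interval -0.35 to 0.18), or -0.14 without heterozygous replicate 3. A_52_P598912 (chr6:119774444-119774503, minus strand) was above background in the Cy5 samples alone, and its difference was -0.21 (SE 0.15, adjusted p = 0.686), or -0.11 without that replicate. The third Erc1 probe (A_52_P310407, chr6:119723123-119723182) was not well above background in any sample and was not tested.

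The bright Erc2 probe (A_55_P2026530, chr14:29291658-29291717, plus strand) measured 13.05, 12.82, 12.68 and 12.57 in wildtype against 12.79, 12.44, 11.96 and 12.65 in heterozygous samples. Heterozygous replicate 3 was again the lowest, replicate 2 was also below all wildtype values, and the difference of -0.32 (SE 0.201, adjusted p = 0.659) was -0.12 without replicate 3. That replicate also had the lowest level of projection neuron markers, the highest level of choroid plexus markers and the fewest spots well above background. Whether any of these had a part in its Erc2 value was not tested. The other tested Erc2 probe (A_55_P2026535, chr14:29116077-29116136, plus strand) measured 8.83, 8.95, 9.35 and 9.23 in wildtype against 9.25, 9.24, 9.43 and 9.44 in heterozygous samples. The difference was 0.25 (SE 0.143, adjusted p = 0.640), and 0.22 without heterozygous replicate 3, opposite in sign to that of the bright probe. The third (A_55_P2026525, chr14:28726168-28726227) was above background in 1 heterozygous sample and in no wildtype sample, and was not tested.

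Of the 6 genes with more than 1 tested probe, 5 had probes with differences of both signs: Pclo, Rims1, Rims3, Unc13a and Erc2. Erc1 was the exception, with both tested probes below 0. The share of all genes with probes of both signs was not counted. The differences below 0 of Rims3 (-0.053, SE 0.098) and Unc13a (-0.030, SE 0.185) were smaller in size than their SE. Probes of one gene share its transcripts in part and are not replicates. Among the 17 tested probes with a value in every sample, 3 had groups that did not overlap (17.6%), against 8.57% of all such probes. Of the 18, 12 had the same sign in Cy3 alone and in Cy5 alone, 8 of them above 0 and 4 below.

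Heterozygous replicate 3 was the lowest heterozygous sample for 10 of the 18 tested probes and the highest for 5. Replicate 1 was the highest for 7 and the lowest for 0. The same counts were not made over all probes, so whether they are particular to these genes is not known. In the brightest probes, replicate 3 was the lowest of all 8 samples for Bsn, Pclo, Unc13a and Erc2, and for Unc13c and Erc1 it was the highest heterozygous sample. The mean profile of the 10 brightest probes, each set to its own mean over the samples, was 0.048, -0.014, -0.012 and -0.094 in wildtype against 0.14, 0.052, -0.17 and 0.053 in heterozygous replicates 1 to 4.

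**Figure D3:**
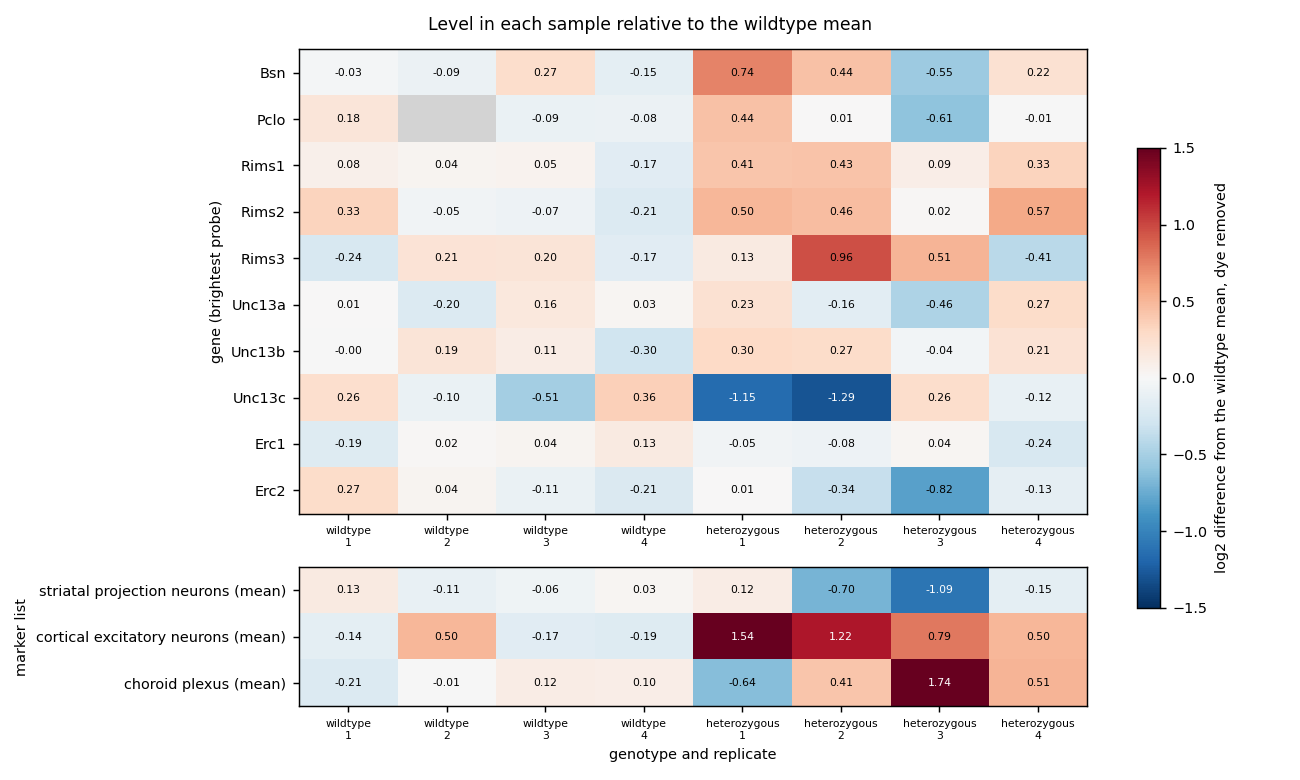
Level of the brightest probe of each gene (upper panel) and mean level of 3 marker lists (lower panel) in each sample, relative to the wildtype mean (log2, dye effect removed, colour scale saturating beyond 1.5 in size). Gray marks the outlier spot of Pclo. Heterozygous replicate 3 has low Bsn, Pclo, Unc13a and Erc2, the lowest projection neuron markers (-1.09) and the highest choroid plexus markers (1.74).

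The 3 genes whose profiles over the 8 samples, after removal of the dye means, were most like the mean member profile among 18488 genes were Sv2b (Pearson r = 0.99), Ovol2 (r = 0.98) and Klhdc2 (r = 0.98). The points share their arrays and genotypes, and a best match among so many genes is a description only.

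The molecular partners of these proteins were read from a list of 57 genes, of which 55 were tested through their brightest probe (all but Rimbp2 and Cacna1b). None passed the threshold, the smallest adjusted p being 0.371. Below an unadjusted p of 0.05, 7 were higher and 1 was lower in heterozygous samples, together 14.5% of the 55 against 8.85% of all genes, where 4.47% were higher and 4.38% lower. The median difference was 0.064, against -0.011 over all genes. Differences were above 0 for 37 partners and below 0 for 18, and 47.8% of all genes were above 0.

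By role, the median was 0.23 for the 9 relatives of Munc13 and priming factors, 0.18 for the 6 adhesion receptors, 0.085 for the 9 genes of Rab3 and its effectors, 0.071 for the 16 scaffold partners, 0.021 for the 9 calcium channel subunits and -0.014 for the 6 other genes of the RIM, RIM-BP and liprin families. Without heterozygous replicate 3 the medians were 0.35 for Munc13 relatives and priming, 0.052 for adhesion, 0.089 for Rab3 and its effectors, 0.089 for scaffold partners, 0.51 for calcium channels and -0.054 for the RIM, RIM-BP and liprin families. The cortical markers, whose median difference was 0.86, had all 12 members above 0, and those of projection neurons, with a median of -0.38, had all 14 below 0; none of either list passed the threshold. The part of tissue makeup in the partner values was not tested.

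The 4 partners with the smallest unadjusted p among those higher were as follows. Stx1a, which encodes syntaxin-1A, the membrane SNARE on which Munc13 acts, differed by 1.11 (SE 0.255, adjusted p = 0.403). Doc2a, a calcium-binding protein that interacts with Munc13, differed by 0.82 (SE 0.171, adjusted p = 0.382). Apba2, which encodes the adaptor Mint2, differed by 0.67 (SE 0.126, adjusted p = 0.371). Cacnb3, a calcium channel beta subunit, differed by 0.65 (SE 0.162, adjusted p = 0.417). Ptprf, which encodes the LAR receptor phosphatase that binds liprins, was the 1 gene lower and differed by -0.45 (SE 0.171, adjusted p = 0.523), with overlapping groups. Without heterozygous replicate 3 the differences were 1.38 for Stx1a, 0.69 for Doc2a, 0.60 for Apba2, 0.82 for Cacnb3 and -0.38 for Ptprf.

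Under 24 alternatives no member probe passed the threshold. Each tested probe had a value under 22 to 24 of them. In all of its own, the reported sign was found for 12 of the 18 probes, 8 above 0 and 4 below, and the other 6 had a different sign in at least 1.

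**Figure D4:**
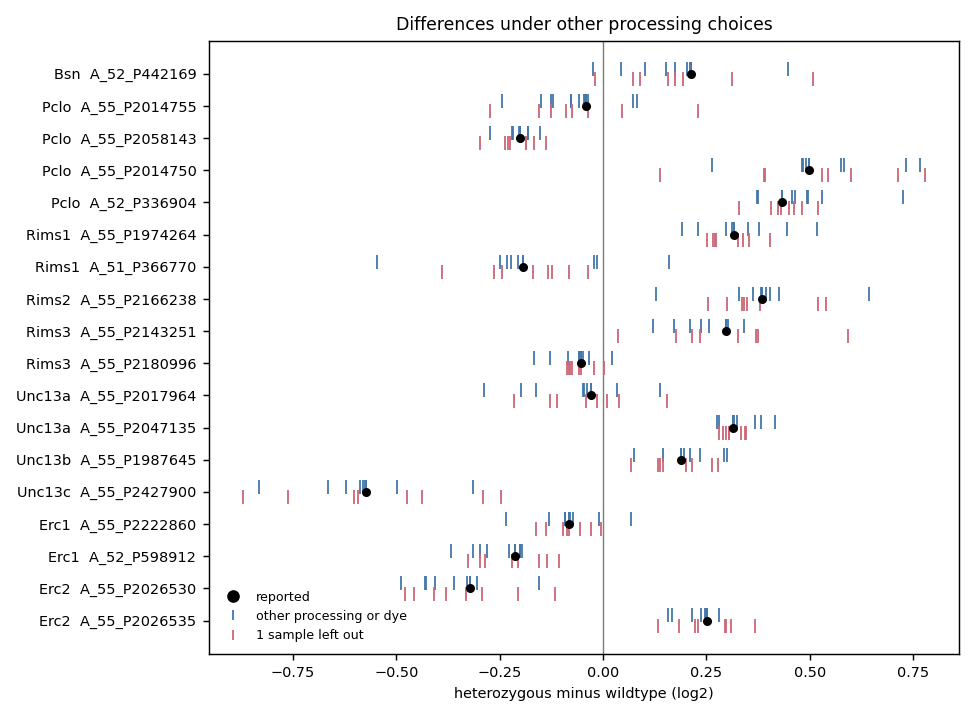
Heterozygous minus wildtype difference (log2, horizontal axis) of each tested probe as reported (black point), under other processing or in 1 dye alone (blue ticks) and with 1 sample left out (red ticks). The ticks of Bsn, Pclo A_55_P2014755, Rims1 A_51_P366770, Rims3 A_55_P2180996, Unc13a A_55_P2017964 and Erc1 A_55_P2222860 lie on both sides of 0.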

How the data were processed

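Per the file headers, spots were quantified by Agilent Feature Extraction 10.7.3.1 on array design 026655, with all arrays in 1 scan of 1 slide; the deposited intensities (mean spot brightness and local background) are linear. In the deposited value table, each column is, from its values, a ratio: median spot intensity minus background, divided by the column's median. It is neither log-transformed nor centred by gene and served as an alternative. The files of both samples of an array are identical, so each sample was taken from the channel of its dye.

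Background was corrected by normexp with an offset of 50, followed by loess within arrays and Aquantile between them (limma 3.58.1, R 4.3.3, statmod 1.5.0), and values were split by channel into log2 intensities. Outlier spots were left out, and replicate spots averaged. Probes well above background in at least 4 of 8 samples (25351 of 39429) entered lmFit and eBayes. The model held genotype, dye and a random array block (consensus correlation -0.0097), with Benjamini-Hochberg adjustment over all of them and a threshold of 0.05. An array holds a single genotype, so array and genotype effects are partly confounded. The labels call the replicates biological without saying that each is 1 animal, so a p-value covers only the spread between samples, which may be technical. Levels of different probes were not compared.

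Named are all member genes, Brd2, up to 4 partners per direction with the smallest unadjusted p under 0.05, and the 3 genes with the most similar profile; Btbd9 was named after its values were seen. Members and lists were chosen with earlier results of these data known. Symbols were updated through the RefSeq table, and coordinates are those of the files (mm9). On simulated data of 25351 probes, the genotype fit recovered 62% of 100 probes changed by 1 and 17% of 100 changed by 0.5 (log2), with 7 false calls. The simulated noise was independent between samples and probes, without array effects or shifts in tissue makeup, so recovery in the real data may differ. Same-numbered samples of the genotypes deviated together with correlations of 0.16, -0.30, -0.19 and -0.26. These values gave no sign that the numbers pair the samples, but with 4 samples per genotype they cannot exclude it. Figures were drawn with matplotlib 3.10.9.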

Additional observations from a re-analysis of the deposited data

Results flagged for a closer look

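Within groups of 4 samples, a sample was looked at again when its gap to the nearest other sample took up more of the group's range than Dixon's 95% critical value allows. This held in 4 of 43 groups of 4 values, those of the member probes and of the 2 Brd2 probes in each genotype, and chance alone gives about 1 in 20. Neither Brd2 probe had a flagged group. For Rims1 A_55_P1974264, wildtype replicate 4 measured 8.20 (log2), below the 8.41 to 8.45 of the other wildtype samples. The other 3 all concern heterozygous replicate 3, the library with the highest Brd2 level of its genotype. It measured 8.71 for Rims1 A_51_P366770 against 8.04 to 8.12 in the others, 7.40 for Rims3 A_55_P2180996 against 7.56 to 7.60, and 7.32 for the untested, dim Erc2 A_55_P2026525 against 6.87 to 6.92.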

How the results depend on the processing

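No member probe passed the threshold under any of 24 alternatives, and the sign turned in 15 of 416 probe results, of 6 probes. It turned for Bsn in Cy3 alone (-0.023) and without heterozygous replicate 1 (leaving out 1 sample gave -0.020 to 0.51). For Pclo A_55_P2014755 it turned with no dye covariate (0.073), in Cy5 alone (0.082), and without wildtype replicate 1 or heterozygous replicate 3 (-0.27 to 0.23 over the samples left out). For Rims1 A_51_P366770 (0.16) and Erc1 A_55_P2222860 (0.067) it turned in Cy3 alone. For Rims3 A_55_P2180996 it turned in Cy5 alone (0.023) and without heterozygous replicate 3 (-0.088 to 0.0032). For Unc13a A_55_P2017964 it turned with the value table (0.033), in Cy5 alone (0.14), and without wildtype replicate 3, heterozygous replicate 2 or heterozygous replicate 3 (-0.22 to 0.16). The cause was not tested. Over all probes, 1 was called as reported. None was called with 75th percentile scaling, the value table, no filter on dim probes, the replicate block, Cy3 alone or one probe per gene. Leaving out 1 sample gave 0 to 1 called. The count of member probes at an unadjusted p under 0.05 was 3 of 18 as reported, against 8.78% of all probes. It was 1 of 18 with processed signals (6.37% of all probes) or quantile normalization (7.54%). With one probe per gene it was 1 of 10 (8.62% of all genes). It was 0 of 18 with 75th percentile scaling (7.56% of all probes) or in Cy3 alone (3.12%). With a signal required in all 8 samples it was 0 of 10 (8.31%), and in Cy5 alone 5 of 18 (10.1%). Leaving out 1 sample gave 0 (heterozygous replicate 4, 4.02% of all probes) to 7 (heterozygous replicate 3, 11.8%). The median over member probes, 0.079 as reported, was 0.030 with 75th percentile scaling, 0.038 with the value table, 0.13 with no dye covariate and 0.20 in Cy5 alone, and -0.051 (without heterozygous replicate 1) to 0.20 (without heterozygous replicate 3) with 1 sample left out. The median over partner genes was -0.023 with processed signals, -0.021 with 75th percentile scaling and -0.056 with the value table. In these settings the median over all probes was -0.052, -0.081 and -0.043, against -0.0082 as reported. With 1 sample left out the partner median was 0.021 to 0.11. With the replicate block, 4 member probes had an unadjusted p under 0.05, against 8.95% of all probes. The smallest adjusted p over all probes was 0.434 there, and whether the numbers pair the samples is not known. Of the 18 tested probes, 8 were not above background in every sample, and in simulated data few differences of 0.5 were recovered.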
